A study of Mus musculus with 8 samples.

Results

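Neurotrophins are secreted growth factors that keep neurons alive, guide their branching and adjust their synapses. The 8 genes described here are 3 of the ligands (Bdnf, Ntf3 and Ntf5), the Trk receptor kinases Ntrk2 and Ntrk3, the shared receptor Ngfr (p75) and the sortilin-family sorting receptors Sort1 and Sorcs3. They were chosen by name, and each was read from a probe set carrying that gene symbol alone, the brightest where there were several. This gave a value for 7 of the 8, among 22180 genes measured in all. Ntf3 had no probe set of its own under this rule and was not analysed here.

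The cells were hippocampal neurons from C57BL/6J mouse embryos at E18.5, grown for 11 days in vitro. Of 8 Affymetrix whole-transcript arrays, 4 read RNA of untreated cultures and 4 that of cultures given 55 mM KCl for 4 h. Raised potassium depolarises neurons and lets calcium in, so the comparison asks how a sustained stand-in for electrical activity changes transcription. The medium of every culture, control or treated, had held AraC, which kills dividing cells, and L-glutamic acid at plating. No allele or transgene is named, every array carries a different mouse number, and the 4 h time point is the only one analysed here.

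Each neurotrophin is made as a longer precursor that proprotein convertases cut to the mature factor. Mature BDNF and NT-4 (the product of Ntf5) bind TrkB, the product of Ntrk2, while NT-3 prefers TrkC, the product of Ntrk3. Uncut precursors bind p75 together with sortilin. Hippocampal neurons are a main source of BDNF in the brain, and calcium entry is a textbook trigger of Bdnf transcription, which starts from several alternative promoters.

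The Bdnf probe set returns 1 value for the gene and does not tell these starts apart. RefSeq lists 7 Bdnf starts in GRCm38.p6, numbered here by position along chromosome 2. The 3 below are shown because, of the 7, they held a match to a motif of calcium-responsive or activity-induced factors in the 250 bases before the start. Capitals mark the matches, and each line runs 5′ to 3′ and ends at the base before the start.
Bdnf start 1, chr2:109674450-109674699, + strand: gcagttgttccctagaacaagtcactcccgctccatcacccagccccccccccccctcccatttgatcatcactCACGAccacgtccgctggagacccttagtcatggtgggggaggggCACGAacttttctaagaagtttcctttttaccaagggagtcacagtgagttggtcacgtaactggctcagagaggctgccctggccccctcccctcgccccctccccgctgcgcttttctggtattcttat
Bdnf start 2, chr2:109676782-109677031, + strand: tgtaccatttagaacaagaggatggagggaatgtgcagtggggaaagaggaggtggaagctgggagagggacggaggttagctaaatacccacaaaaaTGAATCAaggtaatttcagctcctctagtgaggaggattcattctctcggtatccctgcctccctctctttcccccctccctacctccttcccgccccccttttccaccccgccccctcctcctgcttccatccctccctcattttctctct
Bdnf start 3, chr2:109692186-109692435, + strand: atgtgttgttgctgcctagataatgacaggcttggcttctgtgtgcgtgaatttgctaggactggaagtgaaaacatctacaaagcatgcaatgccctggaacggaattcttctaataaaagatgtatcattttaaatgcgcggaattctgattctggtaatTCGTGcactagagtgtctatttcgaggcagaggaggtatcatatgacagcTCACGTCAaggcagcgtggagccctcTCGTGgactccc
Start 3 holds TCACGTCA, which differs at a single base from the cAMP response element TGACGTCA bound by CREB, at 38 to 31 bases before the start. It also holds TCGTG, a core read by dimers of bHLH-PAS factors such as Npas4, at 88 to 84 and at 12 to 8 bases before the start. Start 1 holds the same core on the other strand, read as CACGA, at 176 to 172 and 131 to 127 bases. Start 2 holds TGAATCA, a match to the AP-1 motif TGANTCA, at 152 to 146 bases.

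The search took both strands and 6 motifs: the full element TGACGTCA, its variant TCACGTCA, the core CGTCA, the E-box CACGTG, the AP-1 motif TGANTCA and the bHLH-PAS core TCGTG. Other single-base variants of TGACGTCA were not searched, so the share given for TCACGTCA covers that variant alone. The core CGTCA lies inside both of the longer elements, so it also matches at start 3. Of 32851 RefSeq windows of the same length, 1.55% held TGACGTCA, 0.35% TCACGTCA, 17.8% CGTCA, 6.02% the E-box CACGTG, 6.75% TGANTCA and 13.3% TCGTG. The other 4 Bdnf windows held none of them. How many of the 32851 windows held at least 1 of the 6 motifs was not counted. The 3 of 7 Bdnf windows with a match therefore have no background to be set against. Of the 5 windows of Ntf3, Ntrk2, Ngfr and Sorcs3, 1 held a match, the CACGTG of an Ntf3 start at 231 to 226 bases. These letters are a description of the sequence, and which start was used in these cultures was not measured.

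None of the 7 genes passed the test between KCl and untreated arrays, which was limma with Benjamini-Hochberg adjustment over all genes and a threshold of 0.05. Across all genes, 1.34% passed as higher and 1.02% as lower, 2.36% together, so 0 of 7 lies close to that background. Bdnf stood highest of the 7 by its change, at 2.25-fold after KCl, and the others lay between 0.784-fold and 1.24-fold. The median log2 change was -0.07 over the 7 and -0.01 over all genes, and the median size of the change was 0.15 and 0.12 in the same order. At an unadjusted limma p under 0.05 there was 1 of the 7, Bdnf, against 2888 of all 22180 genes.

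**Figure D1:**
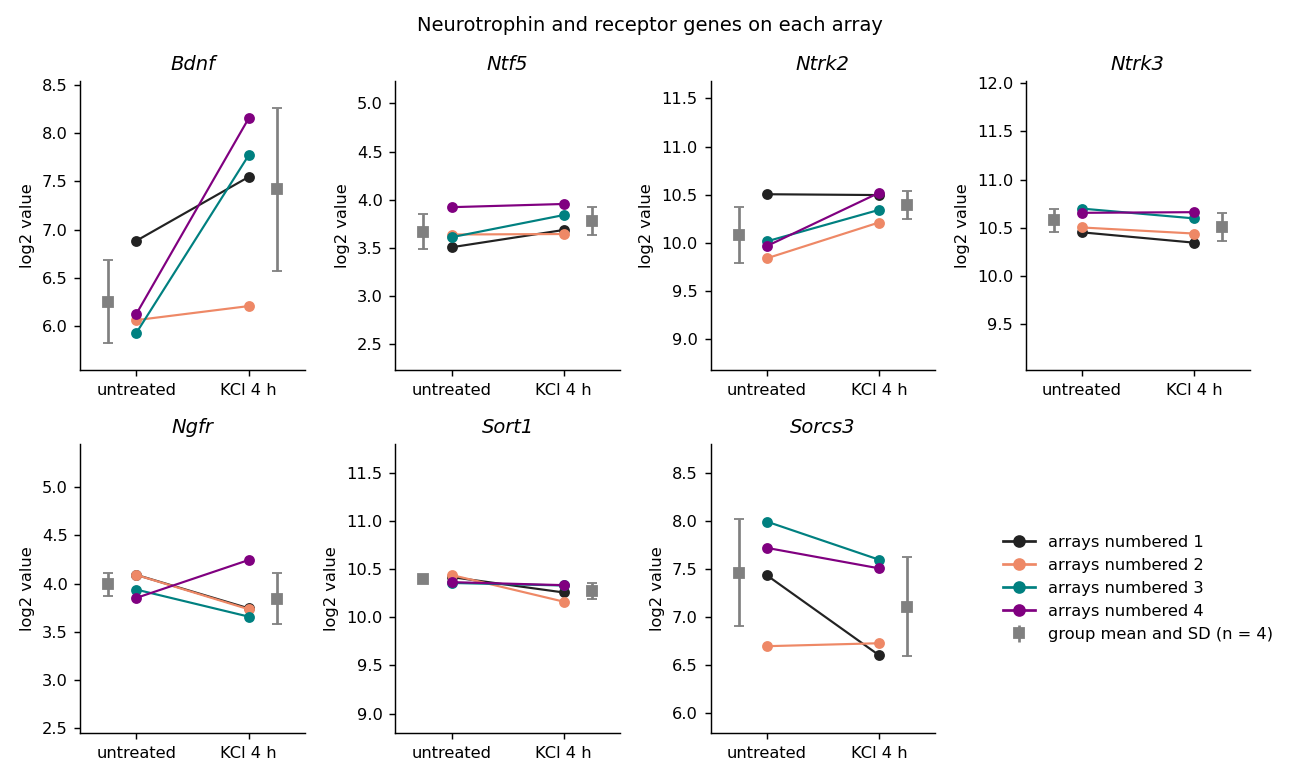
Deposited log2 value of each gene (y axis) on the untreated and KCl 4 h arrays (x axis), with lines joining same-numbered arrays and grey squares for the mean and SD of 4 arrays; every panel spans 3 log2 units. Bdnf lies higher after KCl in 3 pairs and nearly level in the pair numbered 2, while the lines of Ntrk3 and Sort1 are almost flat.

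Bdnf, the ligand most tied to activity, had log2 values of 6.88, 6.06, 5.93 and 6.13 on untreated arrays 1 to 4 and of 7.55, 6.21, 7.77 and 8.15 on KCl arrays 1 to 4. KCl arrays 1, 3 and 4 lay above every untreated array, whereas KCl array 2 lay below untreated array 1, so the groups overlapped. Group means were 6.25 ± 0.431 and 7.42 ± 0.846 (SD, n = 4 each). The differences within same-numbered pairs were 0.66, 0.15, 1.84 and 2.03, all upward. For comparison, 11.0% of all genes were higher in all 4 pairs.

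The log2 change of Bdnf was 1.17 (SE 0.405, 95% interval 0.25 to 2.09), which is 1.19-fold to 4.26-fold, with a limma adjusted p of 0.235. An exact two-sided permutation test over the 70 splits of the 8 arrays gave p = 0.0571. The change ranked at the 99.0th percentile of all genes, and the spread within the groups at the 96.7th. Bdnf thus combined a large difference with a large spread between cultures. Without KCl array 2 the log2 change was 1.57 and Bdnf passed the test (limma adjusted p = 0.0328), with adjusted p up to 0.458 when other single arrays were left out. With the replicate number as a block, it did not pass (limma adjusted p = 0.107).

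Ntf5, which encodes NT-4, was dim. Its untreated values were 3.51, 3.64, 3.61 and 3.92 and its KCl values 3.69, 3.65, 3.84 and 3.96, below the median gene's mean of 4.76 on every array. All 4 pairs were higher after KCl, by 0.01 to 0.23. Untreated arrays 1 to 3 lay below every KCl array, the nearest by a hair, and untreated array 4 lay within the KCl range, so the groups overlapped. The log2 change was 0.11 (SE 0.119, 95% interval -0.16 to 0.38, limma adjusted p = 0.839). RMA compresses changes near background, so a small change at this level may understate one in the cells. Signal over background was not assessed, so whether these values hold Ntf5 signal is not known.

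The Trk receptors were bright on all arrays. Ntrk2, the receptor for BDNF and NT-4, had untreated values of 10.51, 9.84, 10.02 and 9.97 and KCl values of 10.50, 10.21, 10.34 and 10.52. It was higher after KCl in 3 of 4 pairs, by 0.33 to 0.55, and level in the pair numbered 1, at -0.01. Untreated array 1 stood apart from the other 3 untreated arrays and within the KCl range. Group means were 10.1 ± 0.292 and 10.4 ± 0.144 (SD, n = 4 each).

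The log2 change of Ntrk2 was 0.31 (SE 0.154, 95% interval -0.04 to 0.66), or 1.24-fold, and did not pass (limma adjusted p = 0.465). Without untreated array 1 it was 0.45 (limma adjusted p = 0.0953), and without both arrays numbered 1 it was 0.42 (limma adjusted p = 0.162). With the replicate number as a block the 95% interval of Ntrk2 was 0.03 to 0.59, and it did not pass (limma adjusted p = 0.228). The gene makes a full-length kinase and truncated forms, of which a truncated one is abundant in astrocytes, and the single value does not separate them. All 9 astrocyte markers were measured. Their mean log2 value ran from 8.13 to 8.87 on untreated arrays and from 8.15 to 8.57 on KCl arrays. In both groups it was highest on the array numbered 1. Among those markers the glutamate transporter Slc1a2 fell, from 8.86 to 8.09 (limma adjusted p = 0.0479), and the other 8 did not pass. That call was lost with the block (0.062) and in 7 of 8 fits with an array left out, all but that without untreated array 2 (up to 0.14). The part of astrocytes in the Ntrk2 values was not tested, and in whole-culture RNA fewer cells of a type and less RNA per cell cannot be told apart.

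Ntrk3, the NT-3 receptor, hardly differed between the groups, with untreated values of 10.45, 10.50, 10.70 and 10.66 and KCl values of 10.35, 10.44, 10.60 and 10.66. Its log2 change was -0.07 (SE 0.105, limma adjusted p = 0.913). The 95% interval of -0.31 to 0.17 spans 0.808-fold to 1.13-fold, so a change of Bdnf's size lies outside it. Same-numbered arrays differed by 0.11 or less in every pair.

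Ngfr, the p75 receptor that binds all neurotrophins and their precursors, was dim, at 4.09, 4.09, 3.94 and 3.85 on untreated arrays. After KCl it stood at 3.74, 3.73, 3.66 and 4.25. KCl arrays 1 to 3 lay below every untreated array and KCl array 4 above every one. The log2 change was -0.15 (SE 0.142, 95% interval -0.47 to 0.18, limma adjusted p = 0.81). Without KCl array 4 it was -0.28, still short of the threshold (limma adjusted p = 0.333).

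Sort1 encodes sortilin, which sorts BDNF into the secretory pathway and joins p75 as a receptor for precursors. It had untreated values of 10.42, 10.44, 10.36 and 10.36 and KCl values of 10.26, 10.16, 10.33 and 10.33. Every KCl array lay below every untreated array, the only one of the 7 genes whose groups did not overlap, as did 4.33% of all genes in that direction and 3.83% with KCl above, where none of the 7 stood. The gap was narrow, with a log2 change of -0.12 (SE 0.0801, 95% interval -0.31 to 0.06), or 0.918-fold. It did not pass (limma adjusted p = 0.639), while the exact two-sided permutation test, unadjusted, gave p = 0.0286, the smallest that 4 arrays against 4 allow. A second Sort1 probe set was dim and stood at 4.23 ± 0.190 and 4.31 ± 0.0541 (SD, n = 4 each), a difference of 0.08 in the other direction.

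Sorcs3, a sortilin relative found in hippocampal neurons, varied mostly with the replicate number. Untreated values were 7.44, 6.70, 7.99 and 7.72 and KCl values 6.61, 6.73, 7.60 and 7.51. Arrays numbered 3 and 4 stood at 7.51 to 7.99 in either group, above the 6.61 to 7.44 of arrays numbered 1 and 2. It was lower after KCl in 3 of 4 pairs, by -0.83, -0.40 and -0.21, and differed by 0.03 in the pair numbered 2.

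The log2 change of Sorcs3 was -0.35 (SE 0.326, 95% interval -1.09 to 0.39, limma adjusted p = 0.798). It ran from -0.61 without untreated array 2 to -0.17 without untreated array 3, and passed with no single array left out (limma adjusted p 0.492 to 0.951). With the replicate number as a block the SE was 0.151 and the interval -0.71 to 0.01, and it did not pass (limma adjusted p = 0.29). The mean log2 value of inhibitory neuron markers, 7 of 8 measured, split along the same numbers. It was 5.41 to 5.91 on arrays numbered 1 and 2 and 6.21 to 6.60 on those numbered 3 and 4. Npy of that list went against this mean, at 6.80 to 7.18 and 5.98 to 6.68. The mean of endothelial and mural markers, 7 of 7 measured, ran the other way, at 6.01 to 6.14 and 4.87 to 5.08. That split was widest in Acta2 (10.79 to 11.07 and 6.59 to 7.18) and Kdr (7.76 to 8.34 and 5.18 to 5.62). Cldn5, Flt1 and Pecam1 were dim and showed no such split. No marker of either list passed between KCl and untreated arrays without the block. With it 1 did, the inhibitory marker Gad2, an enzyme that makes GABA (log2 change -0.49, limma adjusted p = 0.0458). Gad2 was lower in 4 of 4 pairs, as were 13.2% of all genes. Gad1 of the same list was higher in 4 of 4 pairs, as were 11.0% of all genes. Gad1 did not pass with the block (log2 change 1.08, limma adjusted p = 0.0765). The mean of the inhibitory list was 5.41 to 6.47 on untreated arrays and 5.73 to 6.60 on KCl arrays. The part of these cells in the Sorcs3 values was not tested.

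**Figure D2:**
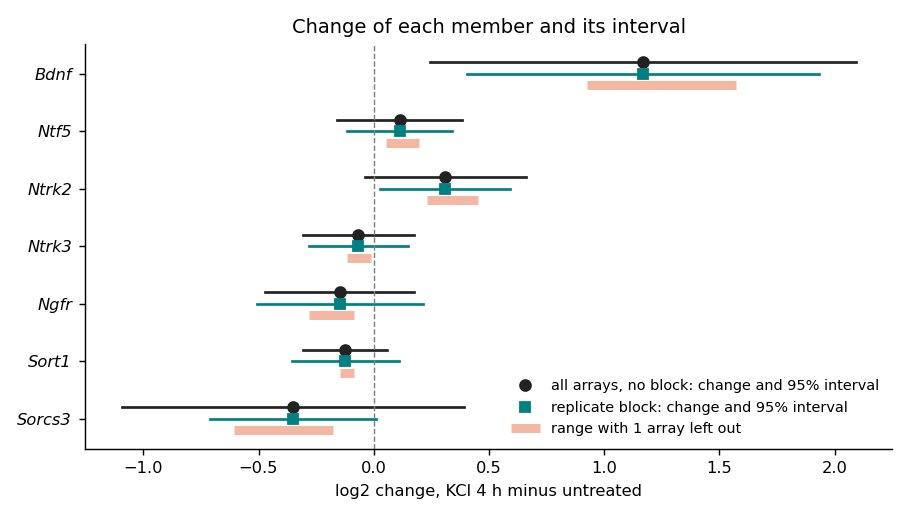
Log2 change of each gene, KCl 4 h minus untreated (x axis), with its 95% interval over 8 arrays without a block (black) and with the replicate number as a block (green), and the range of the change when 1 array is left out (orange bar). The unadjusted interval of Bdnf, 0.25 to 2.09, lies above 0, and those of the other 6 genes without the block span 0. With the block, the unadjusted intervals of Bdnf (0.41 to 1.93) and Ntrk2 (0.03 to 0.59) lie above 0, and the others span 0.

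The genes nearest to Bdnf in pattern were ranked by the root mean square difference of log2 values over the 8 arrays, each gene centred on its own mean. They were Emx2, a homeobox factor of the developing cortex and hippocampus (0.221), the synaptic gene Arc (0.292) and Ptchd1, a patched-domain membrane protein of neurons (0.295). Emx2 stood at 5.81, 4.98, 4.90 and 5.31 on untreated arrays and at 6.57, 5.69, 6.81 and 6.82 after KCl. Arc stood at 6.93, 6.49, 6.04 and 5.83 and at 8.14, 6.80, 7.97 and 8.63. In all 3, as in Bdnf, KCl array 2 was the lowest KCl array. They were picked for likeness to Bdnf over these same arrays, so this follows largely from the choice and only describes them.

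KCl array 2 was also the lowest KCl array for Fos, an early activity gene, but by a narrow margin: its KCl values were 10.36, 10.30, 10.56 and 10.40, against 5.57 to 6.90 untreated. It was the lowest KCl array too for Npas4, a neuronal factor that acts on Bdnf promoters, at 12.06 against 12.16 to 12.56 on the other KCl arrays. Untreated array 1 was in turn the highest untreated array for Bdnf (6.88), Arc (6.93), Fos (6.90) and Npas4 (10.61). The other untreated arrays reached 6.13, 6.49, 6.69 and 8.60 in the same order. Without untreated array 1 the log2 change of Bdnf was 1.38 (limma adjusted p = 0.163). Of the 297 genes that rose, KCl array 2 was the lowest of the 4 KCl arrays for 131, array 1 for 87, array 3 for 39 and array 4 for 40. Those 297 were called with these same arrays, so the counts only describe them.

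Sorcs3 was the other gene whose values spanned at least 1 log2 unit. Its nearest genes were Crhr1, a receptor for corticotropin-releasing hormone (0.162), Cacng2, the AMPA receptor auxiliary subunit stargazin (0.186), and Pcdhb16, a clustered protocadherin (0.202). Cacng2 stood at 7.28, 7.19, 8.08 and 8.06 on untreated arrays and at 6.73, 6.75, 7.65 and 7.56 after KCl. Its values too were higher on arrays numbered 3 and 4, which its choice by likeness to Sorcs3 favours.

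**Figure D3:**
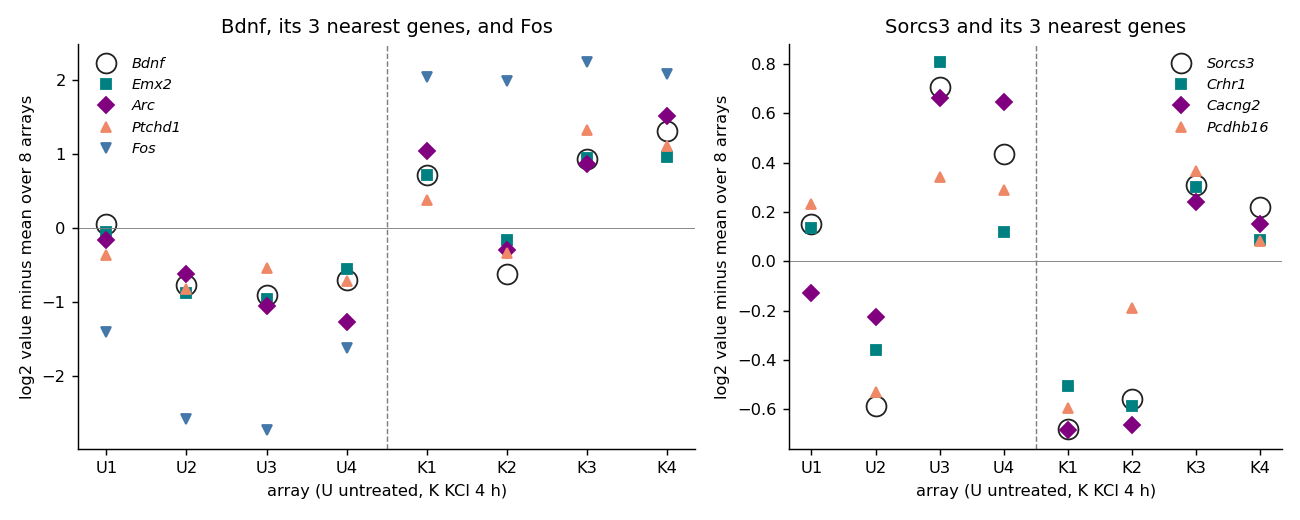
Log2 values minus each gene's mean over 8 arrays (y axis) for untreated (U1 to U4) and KCl 4 h (K1 to K4) arrays: Bdnf with its 3 nearest genes and Fos on the left, Sorcs3 with its 3 nearest genes on the right. On K2 Bdnf, Emx2, Arc and Ptchd1 lie below their means while Fos is about as high as on the other KCl arrays.

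The pathway around these genes was followed with 7 lists, which hold 130 measured genes, 7 of them the genes above. Of the 130, 6 rose and 1 fell, which is 4.62% and 0.769%, against 1.34% and 1.02% of all genes. The lists were drawn up with earlier results of these data known, so that share is not independent evidence. With the replicate number as a block, 10 of the 130 rose and 2 of the 130 fell, against 539 (2.43%) and 446 (2.01%) of all 22180 genes. Without the block, 4 rose when untreated array 2 or untreated array 3 was left out and 3 rose without KCl array 3, and none fell in those fits. The median log2 change over the 130 was 0.04.

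Among 17 measured genes of ligands and their processing, 1 rose and the other 16 did not pass. Pcsk1, a convertase of the regulated secretory pathway that trims prohormones, had untreated values of 9.13, 8.26, 8.57 and 7.87 and KCl values of 9.38, 10.02, 10.73 and 10.82. The groups did not overlap, and it rose 3.43-fold (log2 change 1.78, SE 0.367, limma adjusted p = 0.0472). The call was lost with the block (limma adjusted p = 0.0589) and in 6 of 8 fits with an array left out, those without array 2, 3 or 4 of either group (up to 0.135). Another convertase, Pcsk7, had a log2 change of -0.54 (limma adjusted p = 0.397).

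Of 17 measured receptors and co-receptors, none passed. The smallest p-values were those of Lrig2, a leucine-rich repeat membrane protein (log2 change 0.88, limma adjusted p = 0.079), Lingo1, a signalling partner of p75 (-0.52, 0.0794), and the sortilin relative Sorcs1 (0.29, 0.23). With the block Lrig2 passed (limma adjusted p = 0.0182), and so did the Nogo receptor Rtn4r, lower by a log2 change of -0.49 (0.0465). Without both arrays numbered 1, the fit with the block lost Lrig2 (0.0587) and Rtn4r (0.0814). Lingo1 did not pass with the block (limma adjusted p = 0.0812). Of 13 measured p75 adaptors and death-signalling genes, none passed; beside Rtn4r, which is in this list too, the smallest p-values were those of Bex1 (log2 change 0.20, limma adjusted p = 0.596) and the kinase Mapk9 (-0.25, 0.71).

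The list of Trk adaptors holds 20 measured genes, the receptor gene Ntrk2 among them, of which 1 rose and none fell. Irs2, an adaptor best known from insulin signalling, had untreated values of 9.54, 9.37, 8.62 and 8.81 and KCl values of 10.43, 10.30, 10.40 and 10.56. The KCl arrays all lay higher, at 2.53-fold (log2 change 1.34, SE 0.204, limma adjusted p = 0.0158). Without KCl array 3 or 4 the call was lost (up to 0.0556). The adaptor Crkl had a log2 change of 0.91 and passed with the block (limma adjusted p = 0.0398) but not without it (0.0689), nor with the block once both arrays numbered 1 were left out (0.106). Frs3 had a log2 change of -0.37 (limma adjusted p = 0.116).

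Of 19 measured Ras-MAPK and PI3K-Akt genes, 2 rose and the other 17 did not pass. The kinase Braf rose 1.62-fold, from 10.09, 10.04, 9.82 and 10.11 to 10.82, 10.62, 10.53 and 10.86 (log2 change 0.69, SE 0.112, limma adjusted p = 0.0191). The small GTPase Rap1b, which can activate Braf, rose 1.47-fold, from 10.29, 10.04, 10.20 and 10.26 to 10.95, 10.72, 10.79 and 10.58 (log2 change 0.56, SE 0.107, limma adjusted p = 0.0361). Neither gene's groups overlapped. Of the 8 fits that leave out an array, Rap1b passed in 1, without KCl array 4 (adjusted p up to 0.11 in the rest), and not without both arrays numbered 1 (0.0778). Braf was lost without untreated array 2 or 3 or KCl array 4 (up to 0.0597) and without both arrays numbered 1 (0.0595). The PI3-kinase subunit Pik3cb had a log2 change of 0.70 (limma adjusted p = 0.363).

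Of 20 measured transcription factors and cofactors tied to Bdnf, 2 rose, 1 fell and 17 did not pass. The nuclear receptor Nr4a2 rose 14.9-fold, from 8.44, 7.11, 7.11 and 8.23 to 11.63, 11.07, 11.83 and 11.97 (limma adjusted p = 0.00175), and stayed past the threshold with any array left out. Serum response factor, Srf, rose 2.12-fold, from 7.38, 7.50, 7.06 and 7.06 to 8.37, 8.68, 8.23 and 8.05 (log2 change 1.08, SE 0.162, limma adjusted p = 0.0154). Carf, the calcium response factor, named for binding a calcium response element of a Bdnf promoter, fell to 0.526 of its untreated level. Its values went from 6.42, 6.47, 6.99 and 7.17 to 5.59, 5.99, 5.79 and 5.98, with no overlap (log2 change -0.93, SE 0.189, limma adjusted p = 0.0452). Of the same 8 kinds of fit, Carf passed in 1, without untreated array 1 (adjusted p up to 0.13 in the rest), and not without both arrays numbered 1 (0.0575). Srf was lost without untreated array 3 (limma adjusted p = 0.0501). Npas4 had a log2 change of 4.05 and passed with the block (limma adjusted p = 0.0324) but not without it (0.0517). Its values went from 10.61, 8.14, 5.69 and 8.60 to 12.16, 12.06, 12.46 and 12.56, with no overlap but a wide untreated spread (SD 2.02). Of the 8 fits that leave out an array, Npas4 passed in 2, without untreated array 1 (limma adjusted p = 0.012) or 3 (0.0465).

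Of 27 measured genes of other neurotrophic factors and their receptors, none passed without the block. The insulin-like growth factor receptor Igf1r (log2 change 0.97, limma adjusted p = 0.062) and the angiogenic and neurotrophic factor Vegfa (0.84, 0.123) passed with it (0.0106 and 0.039). Without both arrays numbered 1, the fit with the block kept Igf1r (0.0343) and lost Vegfa (0.101). Both were higher after KCl in 4 of 4 pairs. The GDNF receptor kinase Ret had a log2 change of 0.34 (limma adjusted p = 0.323).

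**Figure D4:**
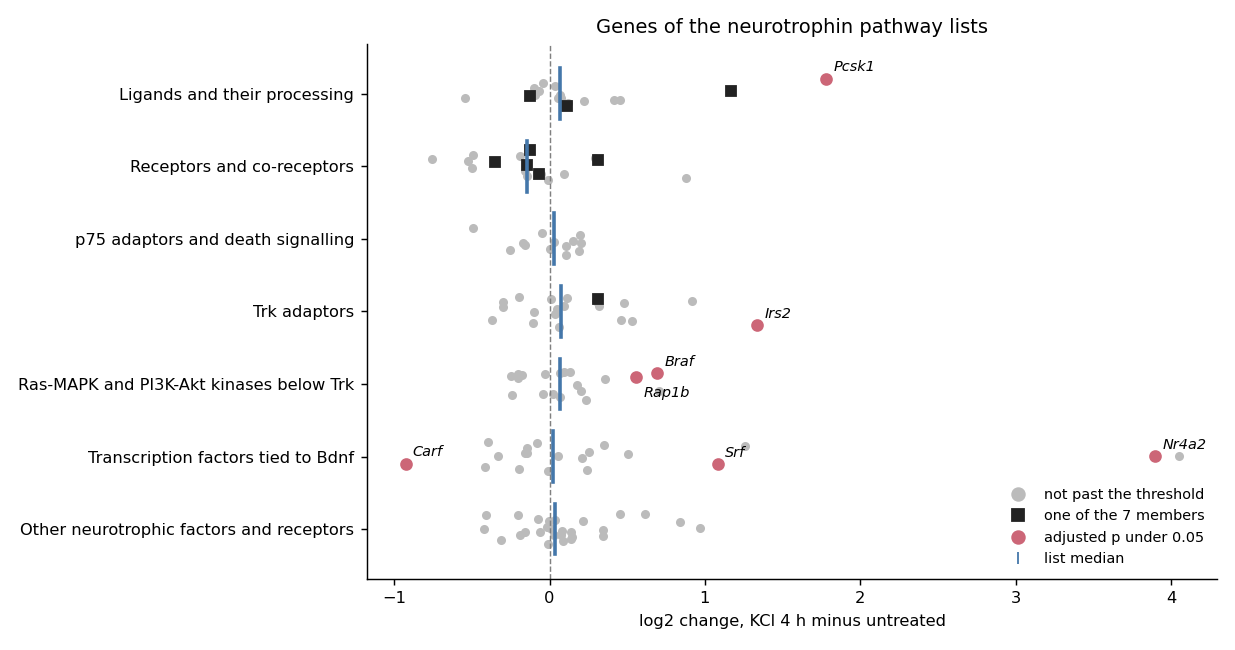
Log2 change, KCl 4 h minus untreated (x axis), of every measured gene in 7 pathway lists (rows), with black squares for the 7 genes described above, red points for genes past the threshold and a blue bar for each list's median; a gene in several lists is drawn in each. The 7 red points are Pcsk1, Irs2, Braf, Rap1b, Srf and Nr4a2 on the right and Carf on the left, and the blue bars lie near 0.

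The arrays had medians of 4.44 to 4.48 over 34472 probe sets, and their number limits the precision. Neuronal markers, 7 of 7 measured, had mean log2 values of 9.99 to 10.51 untreated and 10.19 to 10.55 after KCl, and microglial markers, 7 of 7, stood at 4.30 to 4.38 and 4.14 to 4.43. No marker can be at 0 on this scale. The arrays numbered 1 lay apart on the first principal component, at -48.6 and -43.2 against -4.6 to 26.6 for the other 6. Without both, 0 of the 7 genes passed.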

How the data were processed

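RNA from 4 untreated and 4 KCl-treated cultures was measured, with groups taken from the sample titles. The authors deposited a log2 value per probe set. Per the submitters' processing notes they used RMA (background correction, normalization between arrays and summary of probes) and Partek, with no version or setting stated. Scanner files were not used here, so signal over background was not assessed.

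Gene symbols came from the platform's annotation: 23521 of 34472 had 1 symbol, 1814 had several and 9137 were unnamed here. The brightest probe set of each gene was used (22180 genes). The comparison used lmFit and eBayes of limma 3.58.1 (R 4.3.3) with group as the only term, two-sided. The fit was tried on simulated data with independent arrays and no effect of the replicate number. That trial does not cover arrays that vary together by number. Standard errors are the moderated ones, and folds are 2 raised to the log2 change. No columns belonged to other samples. The members and lists were chosen with earlier results of these data known. Text names all 7 measured genes, list genes past the threshold and the 3 smallest p-values of each list, 3 nearest genes for members spanning at least 1 log2 unit, and Fos, Npas4 and Arc. Genes that passed with the replicate block alone were added after their values were seen.

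Same-numbered arrays deviated together from their group means, at r = 0.64, 0.23, 0.41 and 0.37 across genes, all over 0.1, and were treated as pairs for the blocked fit. Differently numbered arrays reached r = 0.30 (untreated 3 with KCl 4), above the 0.23 of the pair numbered 2. Each of the 8 arrays was still closest to the array of its own number. No litter or day is given in the labels. Promoter sequences are RefSeq's for GRCm38.p6, with the 50 bases after each start left out; 5 of the 8 genes had an entry. Alternatives were repeated quantile normalization, centring, the replicate block, a filter on dim genes, other uses of probe sets, other variance models, array weights, a minimum fold of 1.5, an exact permutation test and leaving out arrays. Figures were drawn with matplotlib 3.10.9.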

Additional observations from a re-analysis of the deposited data

Results flagged for a closer look

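In groups of 4, a sample was singled out where its gap to the nearest other sample, as a share of the group's range, exceeded Dixon's 95% critical value, which chance does in about 1 of 20 groups. Over 35 named genes and 105 groups, 4 were singled out. Ngfr on KCl array 4, at 4.25, lay above the 3.66 to 3.74 of the other KCl arrays. The same array made the difference within the Ngfr pair numbered 4, at 0.39, stand apart from -0.36 to -0.28 in the other pairs. Ret on KCl array 1, at 5.08, lay above the 4.99 to 5.00 of the other 3. Pcdhb16 on untreated array 2, at 5.94, lay below the 6.70 to 6.81 of the other 3.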

How the results depend on the processing

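Over 145 combinations of a member gene and an alternative, 143 kept the direction and stayed short of the threshold, none reversed, and 2 passed. Bdnf passed without KCl replicate 2, and its log2 change ran from 0.92 to 1.57 with single arrays left out. Sort1, at -0.12, passed in the unadjusted exact permutation test (p = 0.0286), but its limma adjusted p was 0.36 to 1.00 over the other alternatives. The number of member genes past the threshold was 0 to 1 with single arrays left out. For the 130 pathway genes the total of 7 became 12 with the replicate block, 1 without moderation and 1 with a minimum change of 1.5-fold, and 3 to 7 with single arrays left out. For all genes the total of 524 became 985 with the replicate block, 129 without moderation and 41 with the minimum change. It was 186 to 501 with single arrays left out: 259 without untreated replicate 2, 236 without untreated replicate 3, 332 without untreated replicate 4, 186 without KCl replicate 3 and 246 without KCl replicate 4. Of the 7 pathway genes, Pcsk1 (limma adjusted p = 0.0575) and Carf (0.0816) were lost with quantile normalization repeated, Carf with trended and robust eBayes (0.0633), Rap1b among brighter genes (0.0611), and all but Nr4a2 without moderation or with the minimum change. The minimum change narrows the calls by its construction, and elsewhere the cause was not tested. The block changed no call of a member gene. Ntf5 and Ngfr lay below the median gene and could not be tested among brighter genes. Signal over background limits what their values show.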
